A study of Mus musculus with 4 samples.

Results

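The bone morphogenetic protein (BMP) and activin pathway was examined in adult bone marrow mesenchymal stromal cells (MSCs) through 47 genes, taken by symbol from the 56980 genes of the count table. They comprise 17 ligands, 7 receptors, 8 SMADs, 4 ID targets and 11 antagonists. The rule is a list of names, with no threshold on a measured value. All 47 symbols were found, and each had an annotated length.

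The libraries come from 4 wild-type male C57BL/6J mice (30 years inbred in-house), aged 14 weeks. From the bone marrow of each mouse, 100 MSCs were sorted by the presence of CD51 and PDGFRa and the absence of CD45, Ter119, CD31 and Sca1, and polyadenylated RNA was turned into full-length cDNA, amplified and tagmented. In the study these cells are the adult niche partner with which ligands and receptors of macrophages were matched. There is 1 condition and 1 library per mouse, so that genes were compared within mice and no groups of mice were compared.

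BMPs and activins are secreted dimers of the TGF-beta superfamily. They bring together type I and type II receptor kinases, and the type I receptor then phosphorylates a receptor SMAD, which enters the nucleus with SMAD4. BMP receptors act on SMAD1, SMAD5 and SMAD9, whereas activin receptors act on SMAD2 and SMAD3. The ID genes, which encode inhibitors of basic helix-loop-helix transcription factors, are classical direct targets of the BMP branch. In bone, BMPs drive stromal progenitors into the osteoblast lineage, and secreted antagonists such as noggin and follistatin hold them in check.

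The libraries held between 22738604 and 43545349 counts on genes, with between 16109 and 18907 genes detected. No libraries were identical, and the Pearson correlation of log2(TPM + 1) between libraries across genes, which are not independent replicates, was between 0.851 and 0.919. TPM is a length-corrected level that is scaled to 1000000 in each library. Of the sort antigens, Pdgfra and Itgav (CD51) had levels of 39.8 ± 7.29 and 15.7 ± 2.51 TPM (SD, n = 4), and Ptprc (CD45) and Pecam1 (CD31) were under 0.3 TPM in every mouse, but Ly6a (Sca1) had 120 and 144 counts in mice 2 and 4 against 1 and 0 in mice 1 and 3. All 6 niche stroma markers (Cxcl12, Lepr, Prrx1, Foxc1, Ebf3 and Kitl) and all 6 osteoblast markers (Bglap, Ibsp, Sp7, Alpl, Col1a1 and Runx2) passed a median of 1 TPM, and the summed osteoblast list, at 100069.3 to 196793.1 TPM, lay above the niche list, at 1067.0 to 4643.8 TPM, in every mouse. None of 7 endothelial or 6 macrophage markers passed, with sums of 0.0465 to 1.28 and 0.254 to 16.1 TPM, and Cdh5, Kdr, Adgre1 and Csf1r were at 0 counts in all 4 mice. Erythroid markers (6 of 6 passed) summed to between 35.0 and 4980.4 TPM, adipocyte markers (3 of 5) to between 199.2 and 962.3, chondrocyte markers (3 of 6) to between 148.9 and 396.2, neutrophil markers (2 of 5) to between 4.09 and 30.7, smooth muscle markers (1 of 4) to between 0 and 29.1, and megakaryocyte markers (0 of 4) to between 0 and 7.95.

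Most of the 47 genes were detected in the MSCs. A median above 1 TPM, the cutoff that the study used for expression, was reached by 38 of the 47 genes, where 22.9% of the 52125 genes with a length and 44.2% of the 21922 protein-coding genes reached it. All 8 SMADs and all 4 ID genes passed, as did 10 of 11 antagonists, 11 of 17 ligands and 5 of 7 receptors. Above 1 TPM in every mouse were 31 of the 47, against a background of 15.4% of all genes and 30.1% of protein-coding genes. These comprised 8 ligands, 3 receptors, 8 SMADs, 4 ID genes and 8 antagonists. The list was named with earlier results of these data known, so these shares describe the list and not the whole pathway. Of 74 further pathway genes, 38 had a median above 1 TPM. The levels spanned a wide range, with medians of 2732.7 TPM for Id3 and 183.8 TPM for Bambi at the top, whereas the receptors all had medians under 15 TPM.

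**Figure D1:**
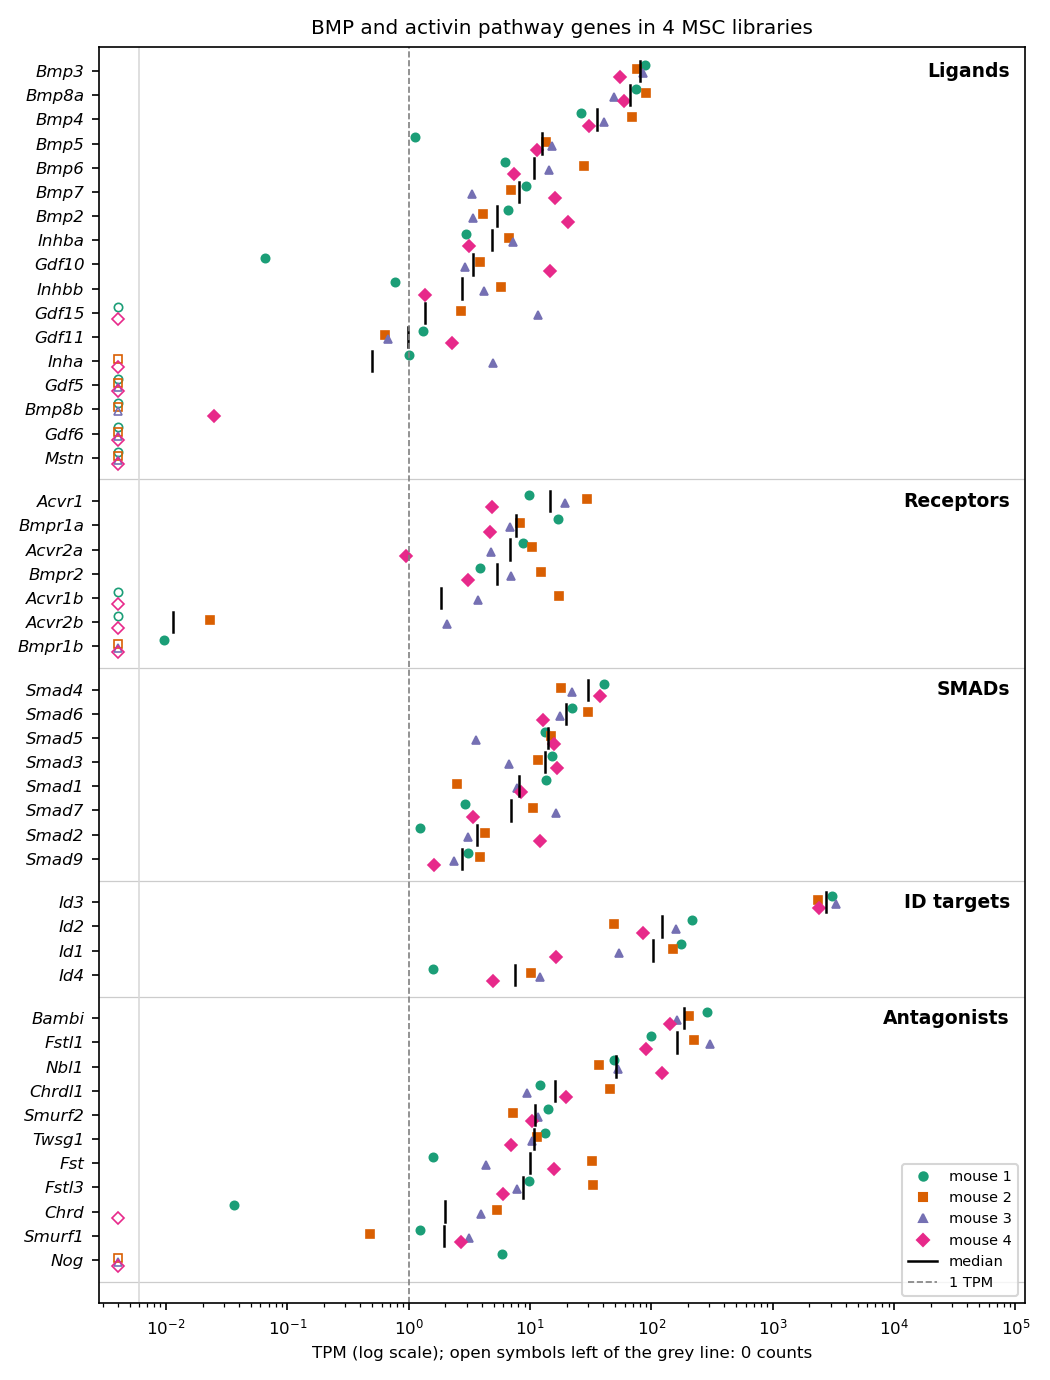
Levels of the 47 pathway genes in the 4 MSC libraries, in TPM on a log scale, 1 symbol per mouse, with a black bar at the median and a dashed line at 1 TPM. Open symbols left of the grey line are libraries with 0 counts. Id3 stands at 2341.6 to 3294.8 TPM, far above all other genes shown, and all 8 SMADs lie right of the dashed line in every mouse.

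Among the ligands, Bmp3 and Bmp8a had the highest medians and Bmp4 followed. Bmp3 (ENSMUSG00000029335; GRCm38 chr5:98854415-98884396, plus strand, 3 exons), which in bone is known as a brake on osteogenic BMPs, had 88.2, 75.9, 86.0 and 55.6 TPM in mice 1 to 4, or 76.4 ± 14.9 TPM (mean ± SD, n = 4). Bmp8a (ENSMUSG00000032726; chr4:123312645-123343252, minus strand, 7 exons), better known from the germ line and adipose tissue, had 74.0, 89.9, 49.3 and 59.3 TPM, or 68.1 ± 17.7 TPM. The values of Bmp3 and Bmp8a overlapped, and Bmp8a was the higher of the pair in mice 2 and 4. The neighbouring copy Bmp8b, whose transcript is 89.1% identical to that of Bmp8a over 1082 aligned bases, had a single count in mouse 4 and none in the other mice. Bmp4, a strong osteogenic ligand, had 26.2, 68.9, 40.3 and 30.7 TPM, highest in mouse 2. Of the summed TPM of the 8 BMP genes, Bmp3 took 34.1 ± 8.17%, Bmp8a 29.8 ± 4.90% and Bmp4 17.7 ± 5.01% (SD, n = 4). Counted without Bmp3, Bmp8a took 45.6 ± 9.69% and Bmp4 26.8 ± 6.43%.

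The other BMPs were lower and less even. Bmp5 had 1.12, 13.4, 15.2 and 11.4 TPM, low in mouse 1 only. Bmp6, known as the liver's iron-sensing ligand, had 6.17, 28.0, 14.3 and 7.42 TPM, with mice 2 and 3 above mice 1 and 4. Bmp7 and Bmp2 had the opposite arrangement. Bmp7 had 9.19, 6.96, 3.34 and 16 TPM, and Bmp2, which is needed for fracture repair, had 6.60, 4.10, 3.39 and 20.5 TPM, so that mice 4 and 1 were the higher for both. Bmp4 exceeded Bmp2 in 4 of 4 mice, and the difference of Bmp2 minus Bmp4 on the log2(TPM + 1) scale was -2.35 ± 1.45 (SD). It was smallest in mouse 4, at -0.56. Bmp5 shares 46.7% of its exonic bases with Gm26903 and Bmp6 5.74% with Txndc5, both on the opposite strand, and no strand option is given for the counting. Gm26903 had 2 counts in all, whereas Txndc5 had between 3282 and 7628 counts per mouse.

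The activin side rested on the beta subunits. Inhba, whose dimer is activin A, had 2.95, 6.64, 7.16 and 3.12 TPM, and Inhbb, the subunit of activin B, had 0.775, 5.77, 4.15 and 1.37 TPM. Both were higher in mice 2 and 3 than in mice 1 and 4, and Inhba exceeded Inhbb in every mouse by 0.70 ± 0.41 on the log2(TPM + 1) scale. Inha, the alpha subunit that makes inhibin instead of activin, had 26, 0, 125 and 0 counts and missed the cutoff with a median of 0.501 TPM. Gdf10, a relative of Bmp3, ranged from 6 counts in mouse 1 to 779 counts, or 14.5 TPM, in mouse 4. Gdf15, a stress-induced cytokine, had 0, 56, 371 and 0 counts. Just below the cutoff lay Gdf11, with a median of 0.986 TPM. The joint ligands Gdf5 and Gdf6 and the muscle ligand Mstn had 0 counts in all 4 mice. At 3 counts this allows at most 0.125, 0.0822 and 0.107 TPM in mouse 4, the shallowest library, for counting error only. These 3 of 47 genes compare with 29.4% of protein-coding genes at 0 counts in every mouse. Gdf5 shares 40.3% of its exonic bases with the opposite-strand gene Gm15557, which was also at 0.

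Receptors were present at low levels and varied between mice. Acvr1 (ALK2; ENSMUSG00000026836; chr2:58388644-58567157, minus strand), a type I receptor for BMPs, had 9.71, 29.6, 19.4 and 4.89 TPM. Bmpr1a (ALK3; chr14:34410734-34503341, minus strand), a major type I BMP receptor of the osteoblast lineage, had 17.0, 8.32, 6.89 and 4.68 TPM. Of the summed type I TPM, Acvr1 took between 36.4% and 64.7% and Bmpr1a between 15.1% and 63.6%, and Bmpr1a was the higher in mouse 1 only. The related Bmpr1b had 1 count in mouse 1 and none elsewhere, and Bmpr1a exceeded it by 3.22 ± 0.69 on the log2(TPM + 1) scale in 4 of 4 mice. Acvr1b (ALK4), the type I receptor for activins, had 0, 852, 283 and 0 counts, or 17.3 TPM in mouse 2 and 3.71 TPM in mouse 3. At 3 counts the 0 counts of Acvr1b allow at most 0.0386 and 0.0657 TPM in mice 1 and 4, for counting error only. Acvr1 exceeded Acvr1b in 4 of 4 mice, by 2.21 ± 1.12.

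The type II receptors Bmpr2 and Acvr2a were close to each other. Bmpr2 (chr1:59763400-59879014, plus strand), which serves BMPs, had 3.83, 12.2, 6.92 and 3.05 TPM. Acvr2a (chr2:48814109-48903269, plus strand), which serves both activins and BMPs, had 8.82, 10.4, 4.8 and 0.953 TPM. Their difference, Bmpr2 minus Acvr2a, was 0.17 ± 0.87 on the log2(TPM + 1) scale, smaller than its spread and positive in 3 of 4 mice (exact two-sided sign-flip permutation test, p = 0.625, adjusted p = 0.677 over 13 pairs). It moved to 0.57 without mouse 1, to 0.08 without mouse 3 and to -0.12 without mouse 4, and it was 0.55 with the longest transcript as the length of each gene and 1.82 with no length correction. Acvr2a shares 7.84% of its exonic bases with the opposite-strand gene Orc4, which had 868, 1692, 973 and 38 counts. Read pairs on exons of both genes are left out by the counter's default, and the part of the overlap in the Acvr2a level was not tested. Acvr2b had 0, 1, 140 and 0 counts, and Acvr2a exceeded it by 2.16 ± 1.41 in 4 of 4 mice.

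The summed receptor level was 39.4, 77.9, 43.8 and 13.6 TPM in mice 1 to 4, a coefficient of variation of 60.5%. The sums of the other classes varied by 14.6% to 18.7%, but Id3 alone made up 88.7% to 95.7% of the ID sum. Sums of smaller groups varied more, by 61.5% for the inhibin and activin subunits and by 30.2% to 45.2% for the SMAD subgroups. Bmpr1a, Bmpr2 and Acvr2a varied less than the 89.6% typical of genes between 1 and 10 TPM, whereas Acvr1b, at 156.6%, varied more. Acvr1, at 68.8%, was above the 42.4% typical of genes between 10 and 100 TPM. Bmpr1a, Bmpr2, Acvr1 and Acvr2a were each lowest in mouse 4, where 29.7% of the 11948 genes past the cutoff were lowest in that mouse, with ties given to the lower-numbered mouse. In mouse 2, 4 of the 7 receptors were highest, where 26.1% of the genes past the cutoff were highest. Mouse 4 was the shallowest library, but the fewest genes were detected in mouse 2, at 16109 against 18802 in mouse 4. Mouse 4 had the highest summed osteoblast markers, of which Bglap made up 156730.4 of 196793.1 TPM, whereas Ibsp and Sp7 were lowest in that mouse. The niche stroma sum was highest in mouse 2, mostly from Cxcl12. The part of these in the receptor levels was not tested. Each library is a pool, so fewer cells with a receptor and less of its RNA per cell cannot be told apart. With 1 library per mouse, differences between animals and differences from making the libraries cannot be told apart either.

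All 8 SMADs were above 1 TPM in every mouse, with summed levels of 111.7, 95.6, 79.9 and 108.4 TPM. Smad4, the common partner of both branches, had the highest median, with 40.6, 17.8, 22.1 and 37.4 TPM. Mice 1 and 4 were above mice 2 and 3, and in mouse 2 Smad6 was the higher gene, at 30.3 TPM. Of the BMP-branch SMADs, Smad5 had 13.2, 14.8, 3.60 and 15.9 TPM, Smad1 13.4, 2.50, 7.86 and 8.42 TPM, and Smad9 3.08, 3.90, 2.37 and 1.6 TPM. Smad9 was the smallest part of the 3 in mice 1, 3 and 4, at 6.19% to 18.4% over all mice. Smad1 and Smad5 changed places between mice. Smad5 took 69.9% of their branch in mouse 2 and Smad1 56.8% in mouse 3, and the difference of Smad1 minus Smad5 was -0.51 ± 1.33 on the log2(TPM + 1) scale, positive in 2 of 4 mice (exact permutation test, p = 0.75, adjusted p = 0.75). It was 0.04 without mouse 2, -1.0 without mouse 3 and -0.02 with the longest transcript as the length.

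On the activin branch, Smad3 stood above Smad2 in every mouse. Smad3 had 15.2, 11.5, 6.69 and 16.8 TPM and Smad2 1.24, 4.25, 3.08 and 12.1 TPM, so that Smad3 took between 58.1% and 92.5% of the pair. Smad2 minus Smad3 was -1.37 ± 1.05 on the log2(TPM + 1) scale and -0.87 without mouse 1, in which Smad2 was lowest. Of the inhibitory SMADs, which block receptor SMADs and are themselves induced by the pathway, Smad6 had 22.0, 30.3, 17.7 and 12.9 TPM and Smad7 2.93, 10.5, 16.5 and 3.38 TPM. Smad6, the inhibitor that acts chiefly on BMP signals, exceeded Smad7 by 1.44 ± 1.01 in 4 of 4 mice, but in mouse 3 they differed by 0.10 only.

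**Figure D2:**
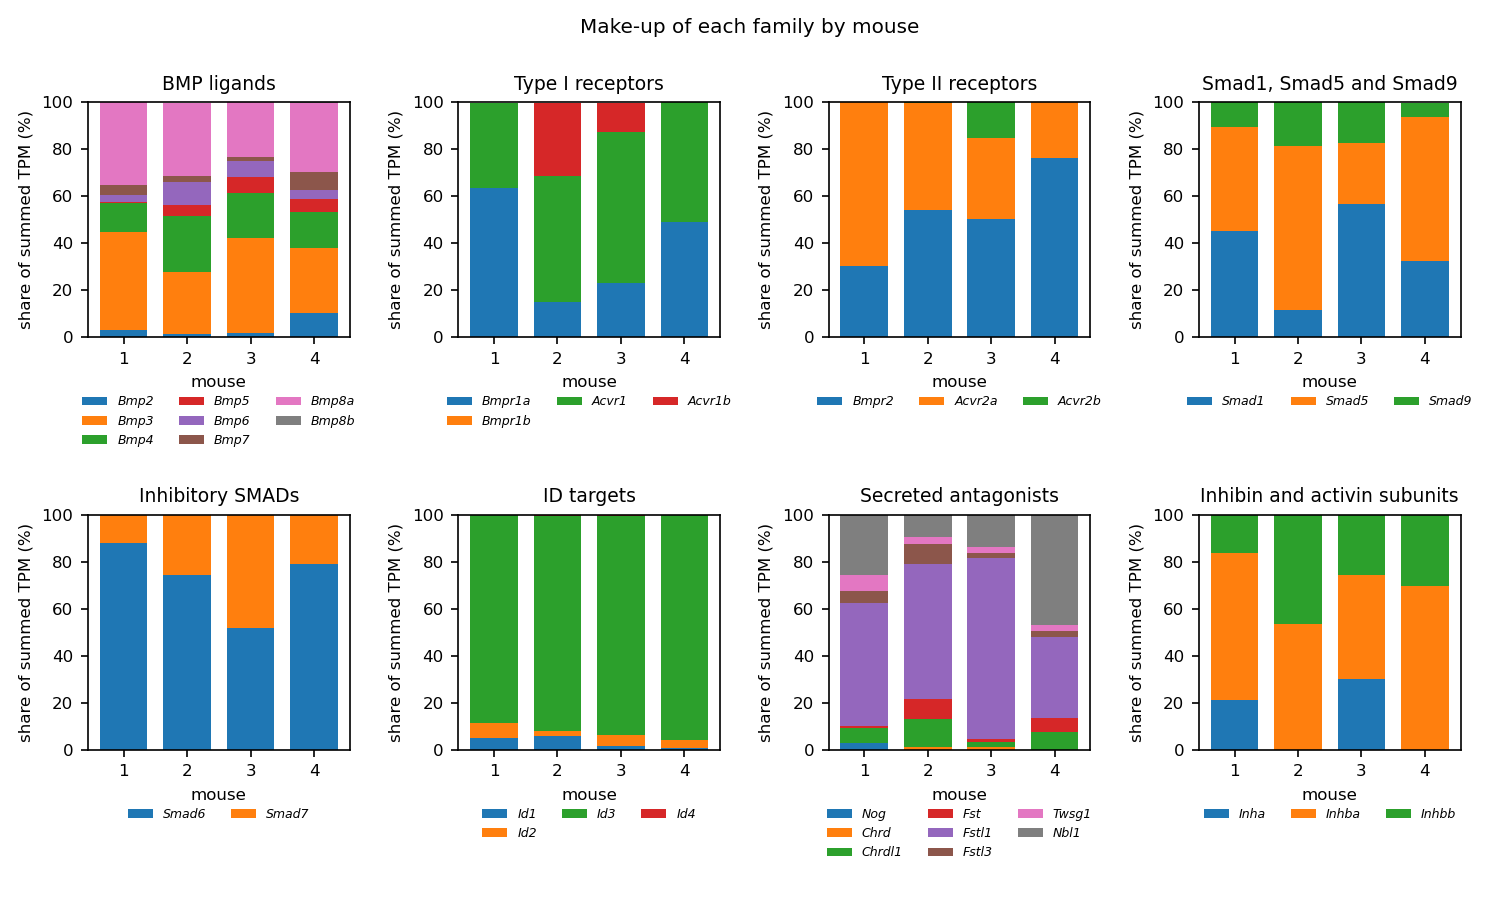
Share of the summed TPM that each gene took of its family, in percent, with 1 stacked bar per mouse. Id3 fills between 88.7% and 95.7% of the ID bar in every mouse, whereas Bmpr1a and Acvr1, Bmpr2 and Acvr2a, and Smad1 and Smad5 change places between mice.

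The ID targets were dominated by Id3. Id3 (ENSMUSG00000007872; GRCm38 chr4:136143497-136145755, plus strand, 3 exons) had 97043, 46654, 101967 and 44153 counts, or 3079.8, 2341.6, 3294.8 and 2385.6 TPM. Its mean was 2775.4 ± 483.9 TPM (SD, n = 4), and its median ranked 30 among the 52125 genes. Mice 1 and 3 were above mice 2 and 4, but the highest was only 1.41 times the lowest. Id2 had 214.9, 48.9, 160.5 and 85.7 TPM, and Id1, the ID gene most often used as a BMP reporter, had 174.9, 149.7, 54.5 and 16.3 TPM. Id1 thus differed 10.8-fold between mice 1 and 4. Id4 was low, at 1.58, 10.1, 12.1 and 4.98 TPM. On the log2(TPM + 1) scale the difference was -5.27 ± 1.5 for Id1 minus Id3, -4.63 ± 0.73 for Id2 minus Id3 and 8.64 ± 1.12 for Id3 minus Id4, with Id3 the higher in 4 of 4 mice each time. Id1 is also high in endothelial cells, whose 7 markers summed to 0.119, 1.28, 0.0465 and 1.10 TPM in mice 1 to 4. Of these, Cdh5, Kdr, Tie1 and Esam were at 0 counts in every mouse, Tek had 58 and 42 counts in mice 2 and 4, Pecam1 had 5 to 14 counts per mouse and Emcn had 1 count in mice 2 and 4, and their part in the Id1 level was not tested. Id2 had the order 1, 3, 4 and 2 from the highest mouse, as did the summed erythroid markers. The erythroid sums were 4980.4, 35.0, 1707.7 and 358.3 TPM in mice 1 to 4. Smurf2 and the niche stroma marker Prrx1 had this order too. Of all genes past the cutoff, 27.6% had mice 1 and 3 highest and 35.0% had mouse 2 lowest. The part of the erythroid markers in the Id2 level was not tested.

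The DNA in front of these genes is shown because the ID genes and Smad6 are among the known direct targets of the BMP branch. RefSeq windows on GRCm38.p6 were available for 34 of the 47 genes, and none for Id1 was in the table used. Each line runs 5′ to 3′ on the strand of the gene, from 250 bases before to 20 after the RefSeq start. This start lies inside the gene span that GENCODE M21 gives for Id2 and Id3, and ahead of that span for Id4. Capitals mark GGCGCC, the GC-rich motif bound by BMP SMADs, GTCTAGAC, the palindromic SMAD binding element, or its core CAGAC and the reverse complement GTCTG. The windows are Id3 at chr4:136143572-136143841 (plus strand), Id2 at chr12:25096073-25096342 (minus strand), Id4 at chr13:48260866-48261135 (plus strand) and Smad6 at chr9:64022040-64022309 (minus strand).
Id3: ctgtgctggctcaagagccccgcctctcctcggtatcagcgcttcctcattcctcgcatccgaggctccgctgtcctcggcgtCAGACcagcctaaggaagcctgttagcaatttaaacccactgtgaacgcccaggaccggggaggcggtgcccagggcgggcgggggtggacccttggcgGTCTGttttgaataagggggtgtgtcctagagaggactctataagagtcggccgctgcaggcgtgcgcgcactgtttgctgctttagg
Id2: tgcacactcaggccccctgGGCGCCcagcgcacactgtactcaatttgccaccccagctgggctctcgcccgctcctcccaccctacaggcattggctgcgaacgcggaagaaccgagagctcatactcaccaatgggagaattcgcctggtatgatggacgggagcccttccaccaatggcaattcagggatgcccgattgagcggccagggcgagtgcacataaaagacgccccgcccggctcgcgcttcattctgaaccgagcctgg
Id4: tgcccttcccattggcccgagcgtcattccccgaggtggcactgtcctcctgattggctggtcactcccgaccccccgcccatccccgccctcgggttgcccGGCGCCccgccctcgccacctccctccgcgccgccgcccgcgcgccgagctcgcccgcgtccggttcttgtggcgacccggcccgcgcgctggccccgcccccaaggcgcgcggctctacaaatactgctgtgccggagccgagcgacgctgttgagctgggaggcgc
Smad6: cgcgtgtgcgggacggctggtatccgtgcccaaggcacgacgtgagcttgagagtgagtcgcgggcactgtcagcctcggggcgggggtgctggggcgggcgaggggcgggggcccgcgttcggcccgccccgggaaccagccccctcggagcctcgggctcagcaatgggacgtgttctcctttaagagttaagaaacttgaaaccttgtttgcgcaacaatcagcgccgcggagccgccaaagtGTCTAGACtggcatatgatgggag
Over 300 bases, from 250 before to 50 after the start and on both strands, GGCGCC was found for 11 of the 34 genes. Some genes have more than 1 window, and GGCGCC was in 12 of their 39 windows and in 11.9% of all 32851 windows. Id2 holds it 231 bases and Id4 148 bases before the start. Id3, the highest gene, has no GGCGCC in its window and holds the short core 167 and 68 bases before the start. The core was found for 19 of the 34 genes, in 21 of their 39 windows and in 49.6% of all windows. GTCTAGAC is rarer, in 0.213% of windows, and among the 34 genes only Smad6 has it, beginning 4 bases before the start. A match is a description of these letters and not a bound site.

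**Figure D3:**
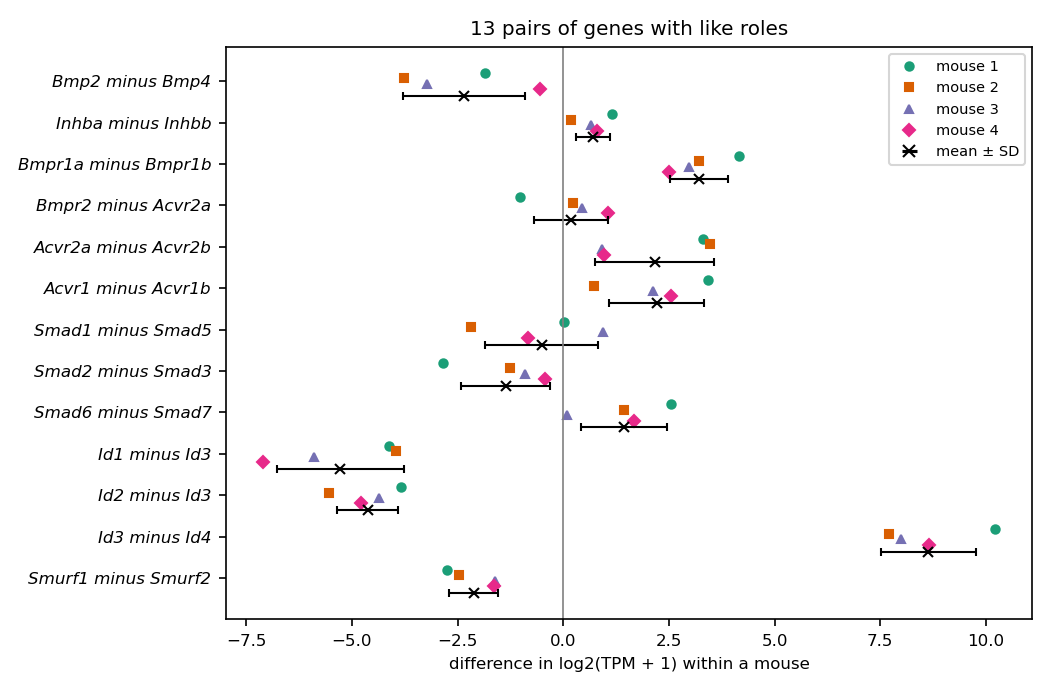
Differences in log2(TPM + 1) within each mouse for 13 pairs of genes of the same class, 1 symbol per mouse, with the mean and SD as a cross and bar below. In 11 pairs all 4 mice lie on 1 side of 0, whereas Bmpr2 minus Acvr2a and Smad1 minus Smad5 have mice on both sides.

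Among the antagonists, the cell-surface decoy Bambi had the highest median, followed by Fstl1. Bambi, a pseudoreceptor that lacks a kinase, had 289.3, 205.0, 162.5 and 141.1 TPM, or 199.5 ± 65.5 TPM (SD, n = 4). Its level lay above that of every receptor gene in every mouse. Fstl1, a secreted follistatin-like glycoprotein, had 99.4, 223.0, 304.4 and 89.7 TPM, with mice 2 and 3 above mice 1 and 4, and it exceeded Bambi in mice 2 and 3. Nbl1 (DAN), which binds BMPs, had 48.7, 36.8, 53.2 and 122.0 TPM and was highest in mouse 4. Of the summed TPM of the 8 secreted antagonists, Fstl1 took between 34.5% and 77.4% and Nbl1 between 9.51% and 46.9%, and mouse 4 was the only mouse in which Nbl1 exceeded Fstl1.

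The classical antagonists were lower. Chrdl1, a chordin relative, had 12.2, 45.4, 9.39 and 19.8 TPM, and Twsg1, a cofactor of chordin, had 13.4, 11.4, 10.3 and 6.93 TPM, among the most even of the 47 genes. Fst, which traps activins, had 1.59, 32.2, 4.30 and 15.6 TPM, and was 20.3 times higher in mouse 2 than in mouse 1. Fstl3, its relative, had 9.72, 33.0, 7.79 and 5.98 TPM, with mouse 2 apart from the other mice. Fstl3 shares 47.3% of its exonic bases with the opposite-strand gene Prss57, for which no mouse had a count. Chrd had 4, 370, 427 and 0 counts, and Nog, the gene of noggin, had 174, 0, 0 and 0 counts. For Nog this is 5.84 TPM in mouse 1 and at most 0.171 TPM elsewhere at 3 counts, for counting error only. Nog was the only antagonist with a median below 1 TPM. Of the SMURF ubiquitin ligases, which mark SMADs and receptors for degradation, Smurf2 had 14.1, 7.22, 11.7 and 10.5 TPM and Smurf1 1.25, 0.482, 3.12 and 2.69 TPM. Smurf1 minus Smurf2 was -2.12 ± 0.58 on the log2(TPM + 1) scale, below 0 in 4 of 4 mice.

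In all, 13 pairs of genes of the same class were compared, some of which share a gene, such as Id3 or Acvr2a. In 11 of them 1 gene was higher in 4 of 4 mice and the mean difference exceeded the SD between mice. Each of these 11 had p = 0.125 in the exact two-sided sign-flip permutation test and an adjusted p of 0.148. With 4 mice 0.125 is the smallest p this test can give, so no pair could pass 0.05.

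The spread between mice, which includes that of making the libraries, was far above counting error at every level. Between 1 and 10 TPM the coefficient of variation over the 4 mice had a median of 89.6% across genes, against 8.05% from counting alone, and 12 of the 20 pathway genes in this range lay below it. From 10 to 100 TPM it was 42.4%, and 7 of 17 lay below, with Bmp3 at 19.5%, Twsg1 at 25.7%, Bmp8a at 26.0% and Smurf2 at 26.4%. From 100 to 1000 TPM it was 23.5%, and all 3 pathway genes lay above, with Id2 at 58.4%, Fstl1 at 57.6% and Bambi at 32.8%. Id3, at 17.4%, was itself the median of the 101 genes above 1000 TPM. The SMADs Smad3, Smad6 and Smad9 had coefficients of 35.6% to 35.8%, whereas Smad2 reached 92.6% and Smad7 77.6%.

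**Figure D4:**
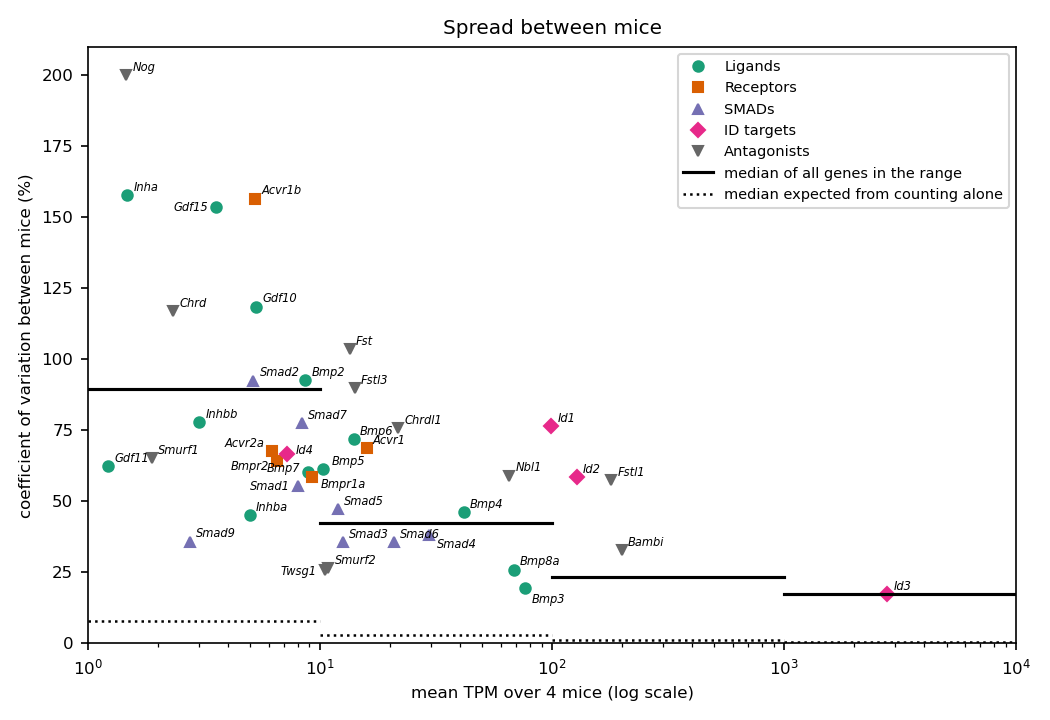
Coefficient of variation between the 4 mice, in percent, against the mean TPM on a log scale, for pathway genes with a mean of at least 1 TPM. Solid lines are the medians of all genes in each range of level and dotted lines are the medians expected from counting alone. Bmp3 and Bmp8a lie below the line of their range at 19.5% and 26.0%, and Id2, Fstl1 and Bambi lie above theirs.

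Genes that were absent in a library and well counted in another were few in the pathway. Of the 41 pathway genes with at least 100 counts in a mouse, 6 had at most 3 counts in another mouse, namely Gdf15, Inha, Acvr1b, Acvr2b, Nog and Chrd, against a background of 35.0% of the 13432 genes with as many counts. The same 6 had 0 counts in at least 1 mouse, against 29.5%. Mouse 4, the shallowest library, was at 0 for all 6. Genes detected were 18683, 16109, 18907 and 18802 in mice 1 to 4, so that mouse 2 had the fewest. How many of the 13432 genes were at 0 in mouse 4 was not counted. Of the 38 genes past the cutoff, 31 were above 1 TPM in every mouse, against 67.3% of all genes past it.

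Several genes were high in the same mice. For 13 of the 38 genes past the cutoff the 2 highest mice were mice 2 and 3, where 20.0% of all genes past it had this arrangement. They were Bmp4, Bmp5, Bmp6, Gdf15, Inhba, Inhbb, Acvr1, Acvr1b, Bmpr2, Smad7, Id4, Chrd and Fstl1. For 5 genes, Bmp2, Bmp7, Smad1, Smad3 and Smad4, they were mice 1 and 4, against 12.6%, which is near the background. For 9 they were mice 1 and 2, against 12.2%, and for 4 they were mice 1 and 3, against 27.6%. Mice 2 and 3 also had the highest summed niche stroma markers, at 4643.8 and 2387.3 TPM against 1067.0 and 1242.8 TPM. Cxcl12 made up most of this sum, and of the 6 markers only Cxcl12 and Kitl were highest in mice 2 and 3, whereas Lepr, Foxc1 and Ebf3 were highest in mice 2 and 4 and Prrx1 in mice 1 and 3. The same mice 2 and 3 had the highest summed dissociation stress genes, at 3784.0 and 5269.3 TPM against 2294.9 and 2250.0 TPM. All 10 stress genes passed the cutoff, but Hspa1a and Hspa1b were highest in mice 2 and 1, unlike the others on the list. The part of the niche and stress genes in the 13 genes was not tested.

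**Figure D5:**
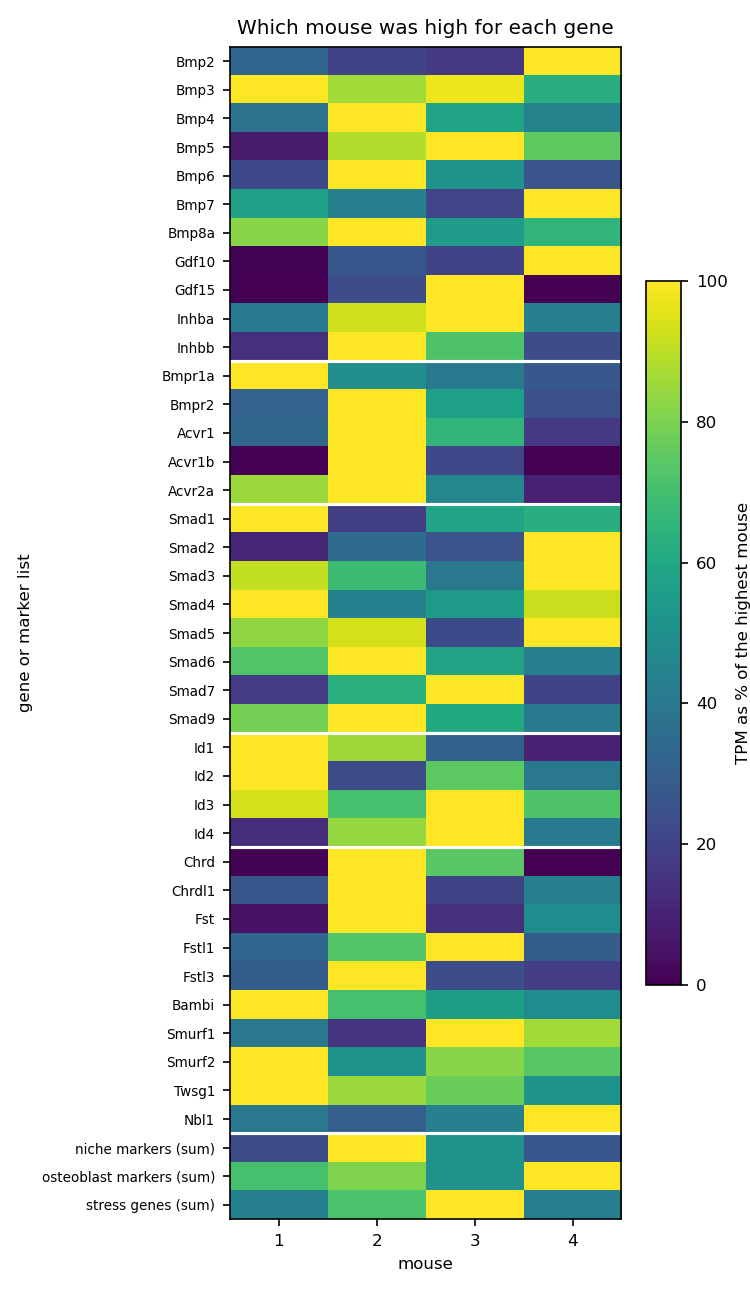
TPM of each pathway gene past the cutoff in each mouse, in percent of the mouse in which it was highest, with white lines between ligands, receptors, SMADs, ID targets and antagonists. The last 3 lines give the summed niche stroma markers, osteoblast markers and stress genes. Bmp4, Bmp6, Bmpr2 and Acvr1 are highest in mouse 2 and next in mouse 3, as is the niche stroma sum, which Cxcl12 dominates.

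Around these genes, 38 of 74 further genes of the pathway had a median above 1 TPM, and 27 were above it in every mouse, not far from the shares of 44.2% and 30.1% of protein-coding genes. None of the 13 further ligands passed, Nodal and Gdf2 (BMP9) among those at 0 counts, whereas 6 of 10 receptors and co-receptors, 8 of 22 secreted modulators, 14 of 16 intracellular regulators and 10 of 13 targets did. The 10 highest medians were those of the matrix cross-linking enzyme Lox at 360.0 TPM, the type I receptor binding protein Fkbp1a at 209.7, the osteoblast factor Sp7 at 206.5, the chordin protease Bmp1 at 170.1, the homeobox target Dlx5 at 167.8, the protease Htra1 at 161.0, the ubiquitin ligase Stub1 at 114.7, Dlx3 at 111.5, the proprotein convertase Pcsk6 at 64.1 and Runx2 at 42.9 TPM. Sp7 and Runx2 also stand in the osteoblast list. Acvrl1 (ALK1), the type I receptor for BMP9 and best known from endothelium, had 4.56, 14.0, 3.50 and 0.0454 TPM, again lowest in mouse 4, and its co-receptor Eng had 19.1, 38.3, 13.6 and 15.3 TPM. The antagonist Grem1 had 6.98, 86.4, 8.11 and 37.1 TPM, with mice 2 and 4 above mice 3 and 1. The same order of the mice, 2, 4, 3 and 1, was held by 1 of the 38 genes past the cutoff, Fst, against a background of 3.98%.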

How the data were processed

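RNA-seq counts of MSCs from 4 mice were analysed as 1 group. The authors deposited raw counts per Ensembl gene, without normalization. According to the study's methods read pairs were aligned to GRCm39 with STAR, and featureCounts assigned the uniquely mapped ones to exons, with no strand option given, and the submitters' processing notes name bcl2fastq 2.20.0, STAR 2.7.10 and Subread 1.6.5. A read pair on exons of 2 genes is left out by the counter's default, so overlapping genes can be undercounted. Reads of PCR copies are not independent molecules, and limits from 3 counts (0.0689 to 0.132 when a library is set to 1000000) cover counting error only. Columns were joined to mice by the code in their names, and 0 columns were left unused.

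TPM values were derived in Python 3.11.15 (numpy 2.4.6, pandas 2.3.3, scipy 1.17.1) with merged exon lengths of GENCODE M21 on GRCm38, another build than that of the counts. No coordinates were converted. No TPM was made for 4855 genes that lack a length, and the rest held 96.1% to 98.2% of the counts. Expression meant a median above 1 TPM. Pairs were compared within mice on log2(TPM + 1) by flipping signs in an exact two-sided permutation test, and p-values were adjusted over 13 pairs after Benjamini and Hochberg. P-values rest on the signs and sizes of the differences in these libraries. With 4 differences of 1 sign the p is 0.125, whatever their spread. The code was tested on simulated data. Identity of transcripts came from BLAST 2.17.0 and promoter windows from RefSeq.

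All 47 genes were accounted for. Values by mouse were given for each receptor, SMAD and ID gene, for the 6 ligands and 6 antagonists with the highest medians, for genes with a mouse that stood apart and for genes of a pair, and some further genes were given by their counts after their values were seen. The names on the list of genes, the other lists, the pairs and the tests were chosen with earlier results of these data known. The alternatives were another length, other denominators, TMM factors (edgeR 4.0.16) and DESeq2 1.42.0 size factors as scaling only, other cutoffs, a minimum of 10 counts, a pseudocount of 0.1 and leaving out each mouse.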

Additional observations from a re-analysis of the deposited data

Results flagged for a closer look

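The TPM of each pathway gene with more than 3 counts in a mouse and the summed TPM of the 5 classes, 47 values in all, were examined for a mouse far from the other 3, as the gap of the highest or lowest mouse to its nearest neighbour divided by the whole range, and set against the 95% limit of Dixon's test. About 1 value in 20, or 2.35 of 47, would pass by chance if the values were normally distributed, which was not tested, and 3 did. The 5 sums are made of the same genes, so the 47 values are not independent. For the activin receptor Acvr2b the gap was 0.989 of the range, with 140 counts in mouse 3 and at most 1 in the others. For Nog it was the whole range, 1.0, with 174 counts in mouse 1 and 0 in the other 3. With 3 libraries tied at 0, as for Nog, and nearly so for Acvr2b, the ratio is at or near 1 whatever the fourth value, and the chance rate does not hold for them. For Fstl3 it was 0.862, with 33.0 TPM in mouse 2 and 5.98 to 9.72 TPM in the others.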

How the results depend on the processing

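For the numbers of genes past the cutoff, 96 of 98 recomputed values stayed within 1.5 times the reported one. The exceptions were the ligands, of which 7 in place of 11 had a median above 5 TPM, and the receptors, of which 3 in place of 5 were above 1 TPM in every mouse. The number for all 47 genes ranged from 29 to 41 under the alternatives. Of 143 recomputed pair differences, 141 kept their direction and 2 reversed, both on leaving out a mouse. Bmpr2 minus Acvr2a lay between -0.12 (without mouse 4) and 0.57 on the log2(TPM + 1) scale, and Smad1 minus Smad5 between -1.0 and 0.042 (without mouse 2), and the cause was not tested. Where the lower receptor had no counts in some mice, the size followed the pseudocount, and at 0.1 Bmpr1a minus Bmpr1b was 6.35, Acvr2a minus Acvr2b 4.37 and Acvr1 minus Acvr1b 3.85. Without a length correction Inhba minus Inhbb was 1.34. A denominator of protein-coding genes moved the median log2 level of all genes past the cutoff by 0.12, and one without the 10 highest genes by 0.60, which is also where the 17 of 423 mean levels that moved by more than 1 SD arose. No paired analysis was possible because the libraries form a single group, with no second group whose mice could be matched by number, and genes alone were compared within mice. Depth limits the genes at 0 counts to the bounds given at 3 counts, which cover counting error only. With 4 mice the sign-flip permutation test of the pairs could not pass 0.05.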

Other observations

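After the values were seen, 1 order of the mice was picked out from several stromal genes. The activin trap Fst and the BMP antagonist Grem1 were highest in mouse 2, then mouse 4, mouse 3 and mouse 1, with 32.2, 15.6, 4.30 and 1.59 TPM for Fst and 86.4, 37.1, 8.11 and 6.98 TPM for Grem1 in that order. The niche stroma markers Lepr, Foxc1 and Ebf3 had the same order, with Lepr at 120.2, 64.8, 44.5 and 31.9 TPM and Ebf3 at 27.3, 12.9, 6.87 and 1.03 TPM, as did the lipase gene Lpl of the adipocyte list, the SMAD anchor gene Zfyve16 and the osteoblast factor Runx2. Among the 11948 genes past the cutoff 476, or 3.98%, had this order, and Fst was the only 1 of the 38 pathway genes with it. Cxcl12, Kitl and Prrx1 of the niche stroma list did not have it, nor did the other genes of the adipocyte and osteoblast lists. Because the order was picked from the values, no test was run on it.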
